A study of Rattus norvegicus with 20 samples.

Results

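The mitochondrial ribosomal protein genes examined here were 73 of the 39747 genes in the count table, of which 21576 were protein coding. A gene was a member if it was annotated as protein coding and its symbol began with Mrpl or Mrps followed by a number. The rule used no expression value, but the set was chosen with earlier results of these data known. The 73 genes comprised 44 Mrpl and 29 Mrps symbols. By fixed lists, 46 were assigned to the large and 27 to the small subunit. The same lists gave 41 as having relatives in bacterial ribosomes and 32 as mitochondrial only. All 73 had at least 10 counts in each of the 20 libraries, and all 73 were tested in every comparison. Mitoribosomal genes spelled otherwise in the table were outside the rule: mrpl9 ranged from 33.2 to 117 RPKM over the libraries, mrpl11 from 15.1 to 77.9, mrpl24 from 8.65 to 53.5, and the gene described as Mrpl30 from 22.03 to 112.

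Mitoribosomes translate the few proteins that mitochondrial DNA encodes, all of them core subunits of the respiratory chain or ATP synthase. Every one of their proteins is encoded in the nucleus, made in the cytosol and imported, so the ribosome joins many separately transcribed genes with RNAs made inside the organelle. The small subunit decodes the messenger RNA and the large subunit forms the peptide bonds. Sensory neurons of the dorsal root ganglion (DRG) have long axons with a high demand for mitochondrial ATP.

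DRG were taken from 14 female Sprague-Dawley rats, given by the study's methods as 8 to 10 weeks old before a 1 week acclimatization, that received an AIN-93G-based soy oil diet (SOD) or a diet with fish oil as the lipid (FOD) from 4 weeks before surgery. Chronic constriction injury (CCI) placed 4 loose chromic gut ligatures around the left sciatic nerve. Control rats (CT) had a sham operation, in which the nerve was exposed and not tied. On soy oil, the left DRG gave 4 sham (SOD-CT) and 3 injured (SOD-CCI) libraries, and on fish oil 3 sham (FOD-CT) and 4 injured (FOD-CCI) libraries. The right DRG of 6 of the injured rats gave 3 SOD-CCI contralateral and 3 FOD-CCI contralateral libraries. Each replicate of a group was a separate rat, all groups had undergone surgery, and no group was unoperated or on an ordinary chow. The paper places collection of the sequenced DRG 1 week after CCI. Its general design text has feeding go on for 4 weeks beyond surgery and does not set these rats apart.

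The libraries held 22547190 to 54437581 counts (median 29051399). In a ganglion, fewer cells of a type and less RNA per cell cannot be told apart. All 12 DRG neuron markers were detected in every group, and their summed level ranged from 3329 to 10987 CPM (counts scaled to a common library size) except in FOD-CCI contralateral replicate 1, where it was 569 CPM. SOD-CT replicate 1 stood apart: 13 skeletal muscle markers took 12.4% of its counts, against at most 2.82% in the other 19 libraries (FOD-CT replicate 2). Replicate 1 of FOD-CT, FOD-CCI and FOD-CCI contralateral carried spinal cord markers at 1516, 1945 and 2031 CPM, against at most 30.6 CPM elsewhere. The library labelled FOD-CCI replicate 1 had summed nerve injury markers at 354 CPM, inside the FOD-CT range of 304 to 559 and near the lowest of the SOD-CT range of 357 to 649, whereas the SOD-CCI libraries had 1953 to 2459 CPM and the other FOD-CCI libraries 1300 to 3507 CPM. For the comparisons most affected, values without these libraries follow the main ones.

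Promoter sequence is shown first, as a feature the choice of genes did not use. RefSeq promoters of the GRCr8 build, 250 bases before to 50 after a transcription start, were found for 59 of the 73 genes (61 promoters), and 14 genes had none in that table. Letters of 5 motifs were searched on both strands. GCGCATGCG, the core recognised by nuclear respiratory factor NRF1, was in 8.20% of the mitoribosomal promoters and in 1.52% of all 33469 promoters. CCGGAAG, the ETS core read by GABPA, was in 31.1% against 8.75%, and AAGATGGCG, read by YY1, was in 13.1% against 1.73%. GGGCGGG (SP1) was in 31.1% against 22.7%, and the E-box CACGTG in 6.56% against 6.42%. The median GC content was 55.7% in the mitoribosomal promoters and 51.7% in all. These are counts of letters in a window, and no factor binding was measured.

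The 4 promoters below are shown because the Mrps18 paralogs, 3 genes descended from one ancestor, had unlike expression patterns in these libraries, and because Mrpl17 had the second highest level of the 73 and the NRF1 letters at 2 places. Each run gives the 250 bases before the start, 5′ to 3′ on the strand of the gene, with motif letters in capitals (overlapping matches share 1 block).
Mrpl17 (chr1:169575700-169575949, minus strand): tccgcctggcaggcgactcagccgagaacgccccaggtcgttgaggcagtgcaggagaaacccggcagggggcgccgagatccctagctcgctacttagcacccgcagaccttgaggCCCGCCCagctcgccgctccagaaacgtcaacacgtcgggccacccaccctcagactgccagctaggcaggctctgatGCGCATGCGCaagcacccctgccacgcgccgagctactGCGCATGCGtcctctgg
Mrps18a (chr9:22367381-22367630, minus strand): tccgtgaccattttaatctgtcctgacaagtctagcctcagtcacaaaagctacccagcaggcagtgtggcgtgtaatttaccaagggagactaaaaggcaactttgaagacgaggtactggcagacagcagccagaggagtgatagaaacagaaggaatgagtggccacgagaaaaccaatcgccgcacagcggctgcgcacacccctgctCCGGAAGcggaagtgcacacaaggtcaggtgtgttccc
Mrps18b (chr20:2842756-2843005, plus strand): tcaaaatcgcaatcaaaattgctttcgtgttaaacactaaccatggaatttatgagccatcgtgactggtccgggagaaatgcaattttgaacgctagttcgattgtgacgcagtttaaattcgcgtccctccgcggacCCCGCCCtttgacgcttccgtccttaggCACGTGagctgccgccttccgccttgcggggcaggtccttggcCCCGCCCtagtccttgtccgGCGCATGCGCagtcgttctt
Mrps18c (chr14:9122907-9123156, minus strand): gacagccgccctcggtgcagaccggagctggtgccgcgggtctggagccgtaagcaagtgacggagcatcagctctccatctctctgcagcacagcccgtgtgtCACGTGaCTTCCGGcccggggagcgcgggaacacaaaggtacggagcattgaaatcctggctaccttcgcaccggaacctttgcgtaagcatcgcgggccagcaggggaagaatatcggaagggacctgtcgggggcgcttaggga

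Positions are those of the first base of a match, counted from the transcription start. The Mrpl17 stretch held the NRF1 letters near position -55, where matches on both strands overlap, and again at -17, beside an SP1 match at -133. Mrps18b held NRF1 letters at -20, the E-box at -83 and SP1 letters at -111 and -40, with an ETS match at -3 that runs past the stretch shown. Mrps18c held the E-box at -146 next to ETS letters at -139, and Mrps18a held ETS letters at -38 only, with YY1 letters at the start itself, just past its end. The 3 paralogs therefore shared the ETS letters, and Mrps18b and Mrps18c the E-box as well.

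To describe the levels, RPKM (reads per kilobase of gene length, scaled to library size) was computed from the counts with TMM-scaled library sizes. The median gene had a median level of 30.2 RPKM over the 20 libraries, and the large (30.5) and small (30.2) subunit sets had nearly the same median level. The highest gene was 13.7-fold above the lowest. At the top were Mrpl49 (125 RPKM), Mrpl17 (114), Mrpl33 (110), Mrpl54 (109) and Mrpl20 (96.6), all proteins of the large subunit. At the bottom were Mrps35 (14.3), Mrps2 (13.01), Mrps27 (12.7, a pentatricopeptide repeat protein), Mrps5 (12.4) and Mrpl40 (9.09). Level went down with gene length across the 73 genes (Spearman rho = -0.66, genes not being independent), and both share the annotated length. The members are short: their length ranged from 492 to 2366 bases with a median of 998, whereas the median of all genes tested was 2357 and only 9.98% of tested genes were shorter than the median member.

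Each gene varied by a median of 3.57-fold between its highest and its lowest library (range 1.77 to 9.16). SOD-CT replicate 1 gave the highest value for 55 of the 73 genes (75.3%), and its median gene was 1.43-fold above the highest of the other 19 libraries. The 73 genes took 0.469% of its counts, against 0.234% to 0.362% in the others. On the log2 CPM scale, the median deviation of the 73 genes from their own means was 1.18 in SOD-CT replicate 1 and between -0.42 and 0.39 in the others. That value was 0.56 when library totals replaced TMM scaling (TMM factor 0.712). Muscle and adipocyte markers (299 CPM for the latter) were also highest in SOD-CT replicate 1, and its neuron markers (3993 CPM) were the lowest of SOD-CT. The library with the next highest deviation, SOD-CCI contralateral replicate 1 (0.39), had muscle markers at 0.037% of its counts. The part of these transcripts in the result was not tested.

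**Figure D1:**
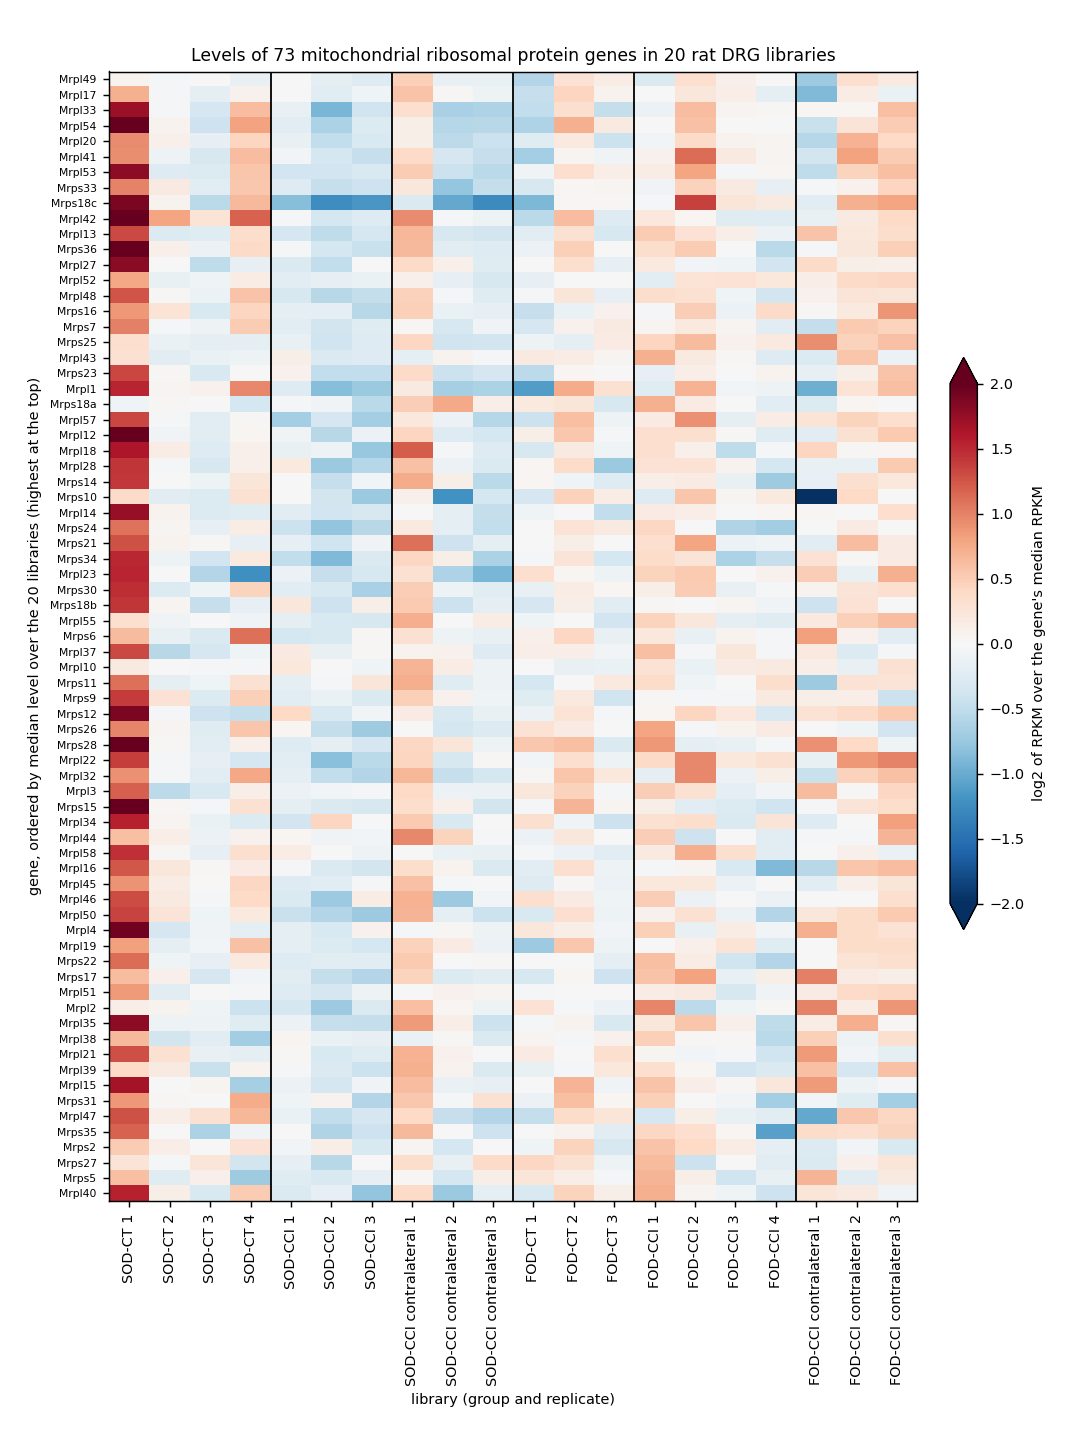
Level of each of the 73 genes (rows, highest median at the top) in each of the 20 libraries (columns, by group and replicate), as log2 of RPKM over the gene's own median RPKM. SOD-CT replicate 1 is above the median for nearly every gene, the 3 SOD-CCI columns are mostly below it, and single rows such as Mrps18c follow their own pattern.

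Apart from that library, the median deviation was -0.06, -0.22 and 0.09 in SOD-CT replicates 2 to 4. It was -0.25, -0.42 and -0.36 in SOD-CCI, so all 3 injured libraries on soy oil were below every sham library, the nearest of them by a small margin. In SOD-CCI contralateral it was 0.39, -0.22 and -0.30. In FOD-CT it was -0.17, 0.14 and -0.15, in FOD-CCI 0.18, 0.15, -0.11 and -0.20, and in FOD-CCI contralateral -0.06, 0.14 and 0.27. The fish oil groups overlapped one another.

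The libraries also differed in how the deviation of all genes ran with gene length, which matters for a set of short genes. This Spearman rho was 0.162 to 0.282 in SOD-CCI, where long transcripts were relatively high, and -0.261 to -0.000088 in FOD-CCI. It was -0.197 to 0.307 in SOD-CT, -0.085 to 0.163 in FOD-CT, -0.156 to 0.350 in SOD-CCI contralateral and -0.308 to -0.017 in FOD-CCI contralateral. Every comparison was therefore also fitted with a gene length offset, which removes the smooth trend on length from each library. The offset also removes any real change shared by genes of like length. A technical length trend and such a change cannot be told apart by it.

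The 73 genes largely moved together between libraries. Each gene was correlated with the median of the other 72 in log2 CPM, as a description. The median r was 0.79 over 20 libraries and 0.65 over the 19 without SOD-CT replicate 1, and 63 and 50 genes exceeded 0.5. No gene had a negative r in the 19. Most like the rest in both sets was Mrps36 (r = 0.97, and 0.92 in the 19). It is a member by its symbol, and its product serves the 2-oxoglutarate dehydrogenase complex. Its place in the mitoribosome was not examined. The next in the 20 was Mrpl12 (0.95, and 0.88 in the 19), the flexible stalk protein, whereas the next in the 19 were Mrpl50 (0.91) and Mrpl48 (0.90). Mrps18a was the least like the rest in the 20 (0.15, and 0.35 in the 19), whereas its paralogs had 0.83 and 0.55 (Mrps18b) and 0.79 and 0.71 (Mrps18c). All libraries share depth, composition and gene length effects in such values. The same r is not given for other genes, so there is no baseline for these values.

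To examine injury under the control diet, SOD-CCI was compared with SOD-CT by edgeR's quasi-likelihood test with Benjamini-Hochberg adjustment over the 14484 genes tested. The threshold for a call was a fold of 1.2 or more together with an adjusted p no higher than 0.1. In SOD-CCI, 72 of the 73 genes had lower estimates, with a median log2 fold change of -0.68 against -0.01 over all genes. None of the 73 was called (smallest adjusted p = 0.266), and 0% of all genes were. Before adjustment, 32 were lower at p under 0.05, against 8.8% of all genes, and none was higher. DESeq2 called 8, all lower, when it called 3.3% of the genes it gave an adjusted p lower. These were Mrps18c, Mrpl42, Mrpl50, Mrpl47, Mrpl1, Mrpl48, Mrpl54 and Mrps33, with adjusted p from 0.0207 to 0.0829. With SOD-CT replicate 1 left out, DESeq2 called none of the 73 (smallest adjusted p = 0.123), when it called 0.26% of genes lower.

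Leaving out SOD-CT replicate 1 reduced the median to -0.25, with 62 genes lower and 10 lower at p under 0.05 (4.31% of all genes). With the length offset the median was -0.45, with 64 lower and 16 at p under 0.05 (8.77% of all genes). With both, it was -0.16, with 53 lower, 7 lower and 1 higher at p under 0.05 (4.03% and 3.79% of all genes). The count of 32 was 14 without SOD-CCI replicate 2 (4.39% of all genes) and 15 without SOD-CCI replicate 3 (5.04%). Every SOD-CCI library was below every SOD-CT library for 18 of the 73 genes, against 7.49% of all genes.

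The clearest difference was that of Mrpl42, a large subunit protein found only in mitochondria. Its level was 306, 118, 81.9 and 153 RPKM in SOD-CT and 65.9, 52.9 and 56.98 in SOD-CCI. Every SOD-CCI library was below every SOD-CT library. The log2 fold change was -1.49 (SE 0.40, adjusted p = 0.266 by edgeR's quasi-likelihood test), and -1.02 without SOD-CT replicate 1 (adjusted p = 0.529).

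Mrps18c, the paralog that occupies the site of bacterial S18 in the small subunit, was at 257, 73.5, 47.8 and 110 RPKM in SOD-CT and at 38.8, 29.5 and 31.04 in SOD-CCI. Again every injured library was below every sham library. Its log2 fold change was -1.88 (SE 0.52, adjusted p = 0.266 by edgeR), or -1.23 without SOD-CT replicate 1 and -1.43 with the length offset. Mrpl50, another large subunit protein absent from bacteria, was at 58.1, 27.2, 21.5 and 26.3 against 16.7, 15.2 and 13.7 RPKM. This was a log2 fold change of -1.13 (SE 0.33, adjusted p = 0.266 by edgeR), and -0.73 without SOD-CT replicate 1.

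Members of the ribosome's working parts differed in how far they rested on SOD-CT replicate 1. Mrpl12, the stalk protein, was at 239 RPKM in that library and at 38.9, 34.7 and 41.9 in the other SOD-CT libraries, against 38.7, 27.6 and 37.7 in SOD-CCI. Its log2 fold change of -1.35 (adjusted p = 0.331 by edgeR) became -0.17 without that library. Mrpl10, which anchors the stalk, was level: 33.2, 29.1, 29.04 and 28.9 RPKM in SOD-CT against 33.99, 29.5 and 27.6 in SOD-CCI, and it was the 1 gene with a higher estimate (0.02).

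Mrps12, a protein of the decoding centre, was at 101 RPKM in SOD-CT replicate 1 and 19.6 to 26.7 in replicates 2 to 4, against 22.1 to 36.1 in SOD-CCI. The log2 fold change of -0.57 turned to 0.33 without that library. The value for Mrps36 went from -1.35 to -0.41. Mrpl58, a peptidyl-tRNA hydrolase that rescues stalled ribosomes, had -0.54 (-0.07 without that library) and was 67.3 RPKM in that library against 21.9 to 30.8 in the other SOD-CT libraries.

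Genes whose human counterparts underlie inherited deficiencies of the respiratory chain were also lower in estimate. The log2 fold change was -0.68 for Mrps16 (adjusted p = 0.317 by edgeR), -0.59 for Mrps22, -0.35 for Mrpl3 and -0.22 for Mrpl44, and none was called. Leaving out SOD-CT replicate 1, these were -0.49 (Mrps16), -0.23 (Mrps22), 0.13 (Mrpl3) and -0.07 (Mrpl44). The gene Mrps30, whose product sits in the large subunit despite its name, had -0.94 (adjusted p = 0.305 by edgeR) and -0.45 without that library, with 94.3, 27.9, 31.96 and 45.8 RPKM in SOD-CT against 29.1, 27.3 and 21.6 in SOD-CCI.

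The Mrps18 paralogs were not alike. Mrps18a, whose product is placed in the large subunit, was at 40.5, 43.5, 42.4 and 33.5 RPKM in SOD-CT and 42.2, 40.6 and 29.5 in SOD-CCI (log2 fold change -0.09). Its level in SOD-CT replicate 1 lay within the range of the other sham libraries. Mrps18b, in the small subunit, was at 84.8, 32.8, 22.9 and 28.03 against 36.7, 23.7 and 34.03 RPKM (-0.42, and 0.16 without that library). Their directions flipped with the processing: Mrps18a had 0.18 with the length offset and 0.03 with library totals in place of TMM.

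**Figure D2:**
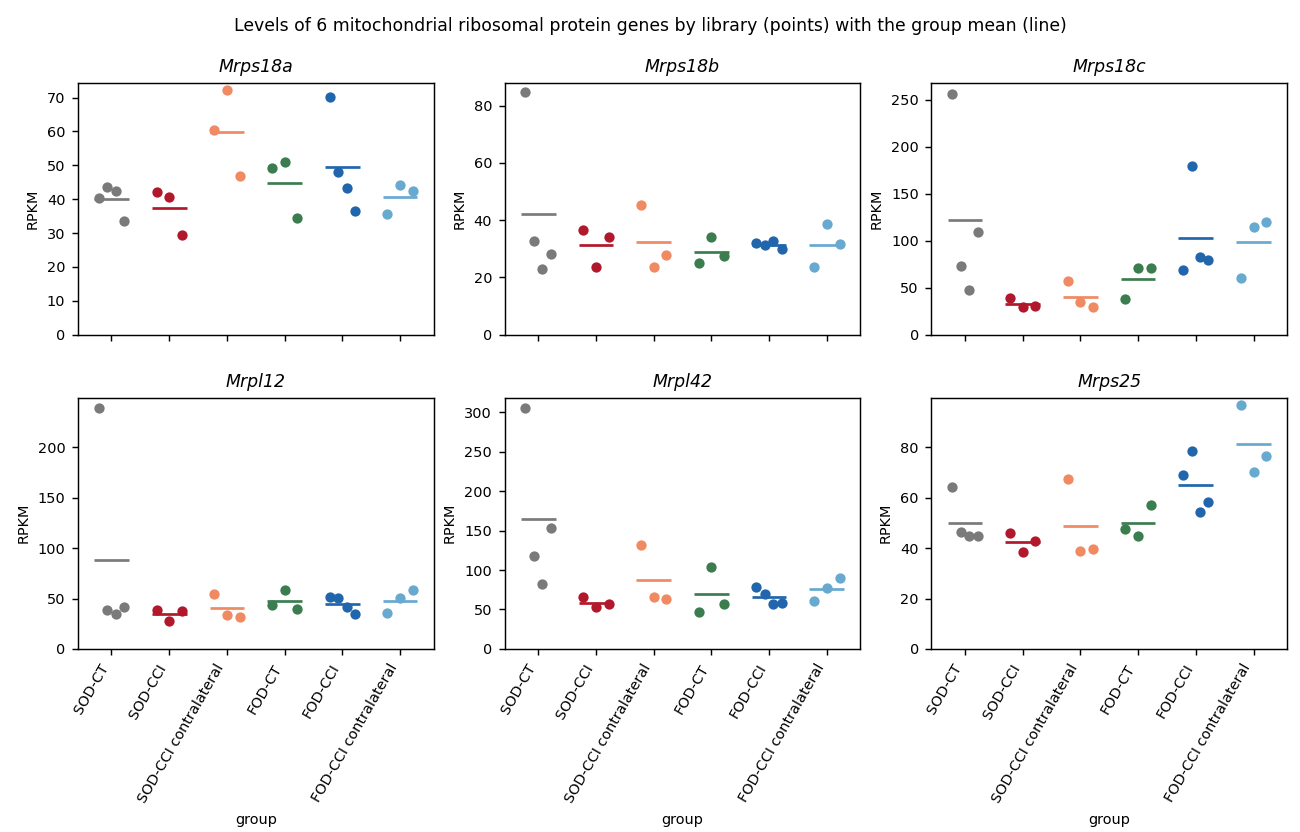
RPKM of 6 genes by group (points are libraries, lines are group means, axes start at 0). Mrps18c and Mrpl42 are lower in all 3 SOD-CCI libraries than in any SOD-CT library, Mrpl12 and Mrps18b are high in 1 SOD-CT library, Mrps18a has its highest group mean in SOD-CCI contralateral, and Mrps25 is higher in all FOD-CCI than in all SOD-CCI libraries.

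To examine injury under fish oil, FOD-CCI was compared with FOD-CT. Of the 73 genes, 47 were higher and 26 lower in estimate, with a median log2 fold change of 0.07 (0.01 over all genes). Here and below, a DESeq2 count of 0 from a fit with no library left out lacks that tool's share of all genes. It therefore has no background. Neither tool called any (edgeR called 0% of all genes), and 1 was higher at p under 0.05, against 3.2% of all genes. That gene was Mrps17, a small subunit protein of bacterial ancestry, at 17.3, 22.4 and 16.3 RPKM in FOD-CT and 32.2, 37.98, 19.6 and 23.5 in FOD-CCI. Of its 4 injured libraries, 3 lay above the sham range and 1 within it. This was a log2 fold change of 0.60 (SE 0.28, adjusted p = 1.00 by edgeR).

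Mrps25, a small subunit protein particular to mitochondria, was at 47.7, 44.8 and 57.01 RPKM in FOD-CT and 68.9, 78.7, 54.2 and 58.4 in FOD-CCI (log2 fold change 0.38). Mrpl41, of the large subunit, was at 59.1, 98.4 and 90.4 against 100, 204, 107 and 98.4 RPKM (log2 fold change 0.62). Its highest value came from FOD-CCI replicate 2, where red cell markers summed to 22320 CPM, against at most 9289 CPM in any other library, and their part was not tested. Mrps18c was also highest there: 68.97, 179, 82.7 and 79.3 RPKM in FOD-CCI against 37.5, 70.6 and 70.9 in FOD-CT (log2 fold change 0.78). Leaving that library out gave 0.37 for Mrps18c, 0.30 for Mrpl41, 0.28 for Mrps25 and 0.43 for Mrps17. The median of the 73 genes was then 0.02, with FOD-CT replicate 2 left out instead it was 0.19, and without the libraries with spinal cord transcripts it was -0.05, so its sign was not stable. Same-numbered libraries of FOD-CT and FOD-CCI deviated together (r = 0.42, 0.23 and 0.18). With that number as a block in a fit of these 2 groups, the median was 0.15, none was called (smallest adjusted p = 0.904 by edgeR), and 3 genes were higher at p under 0.05, against 2.77% of all genes. They were Mrps17 (0.65), Mrps18c (0.82) and Mrpl41 (0.69).

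To test whether diet was associated with a difference in injured ganglia, FOD-CCI was compared with SOD-CCI. Here 72 of the 73 genes were higher in estimate on fish oil, with a median log2 fold change of 0.35 against 0.04 over all genes. None was called by edgeR (smallest adjusted p = 0.859, 0% of all genes) or by DESeq2, and 5 were higher at p under 0.05, against 3.87% of all genes. Every FOD-CCI library exceeded every SOD-CCI library for 21 of the 73 genes, against 7.54% of all genes.

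This difference ran with gene length and was smaller with the length offset. Across all genes the log2 fold change had a Spearman rho of -0.35 with length, and across the 73 genes -0.32. With the length offset, the median was 0.11, with 56 genes higher and 3 at p under 0.05 (2.96% of all genes). The count of 5 became 16 without SOD-CT replicate 1, which is in neither group but enters the shared estimate of the spread, when 6.62% of all genes were higher. It became 20 when only the 2 groups were fitted, and 7.28% of all genes. DESeq2 called 3 members without SOD-CT replicate 1, all higher, and 1.05% of genes higher. These were Mrps18c (log2 fold change 1.64, adjusted p = 0.0109 by DESeq2), Mrpl22 (1.02, 0.0277) and Mrps25 (0.63, 0.0980). Mrpl22, a large subunit protein named after its values were seen, was at 21.8, 14.4 and 17.7 RPKM in SOD-CCI and 33.4, 49.99, 29.7 and 31.6 in FOD-CCI, and had 0.63 with the length offset. Without FOD-CCI replicate 1, whose injury markers were at sham level, the median was 0.26 with 65 genes higher.

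Mrps18c had the smallest p, with 38.8, 29.5 and 31.04 RPKM in SOD-CCI and 68.97, 179, 82.7 and 79.3 in FOD-CCI, so that the lowest fish oil library was well above the highest soy oil library. The log2 fold change was 1.63 (SE 0.51, adjusted p = 0.859 by edgeR), 1.27 with the length offset and 1.22 without FOD-CCI replicate 2. Mrps25 was at 46.1, 38.5 and 42.6 against 68.9, 78.7, 54.2 and 58.4 RPKM, again without overlap. The log2 fold change of 0.62 (SE 0.20, adjusted p = 0.859 by edgeR) was 0.24 with the length offset. Mrps17 was at 18.5, 15.7 and 14.5 against 32.2, 37.98, 19.6 and 23.5 RPKM (log2 fold change 0.80, SE 0.28, adjusted p = 0.859 by edgeR), and 0.66 with the offset.

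Other genes with set roles showed small diet differences. Mrpl10 had a log2 fold change of 0.08, Mrps12 0.08, Mrpl44 0.02 and Mrps18b 0.00, whereas Mrps16 had 0.51, Mrps30 0.51 and Mrpl12 0.35. The genes of highest level had 0.19 (Mrpl49), 0.15 (Mrpl17), 0.63 (Mrpl33), 0.53 (Mrpl54) and 0.43 (Mrpl20). No gene of these was called.

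**Figure D3:**
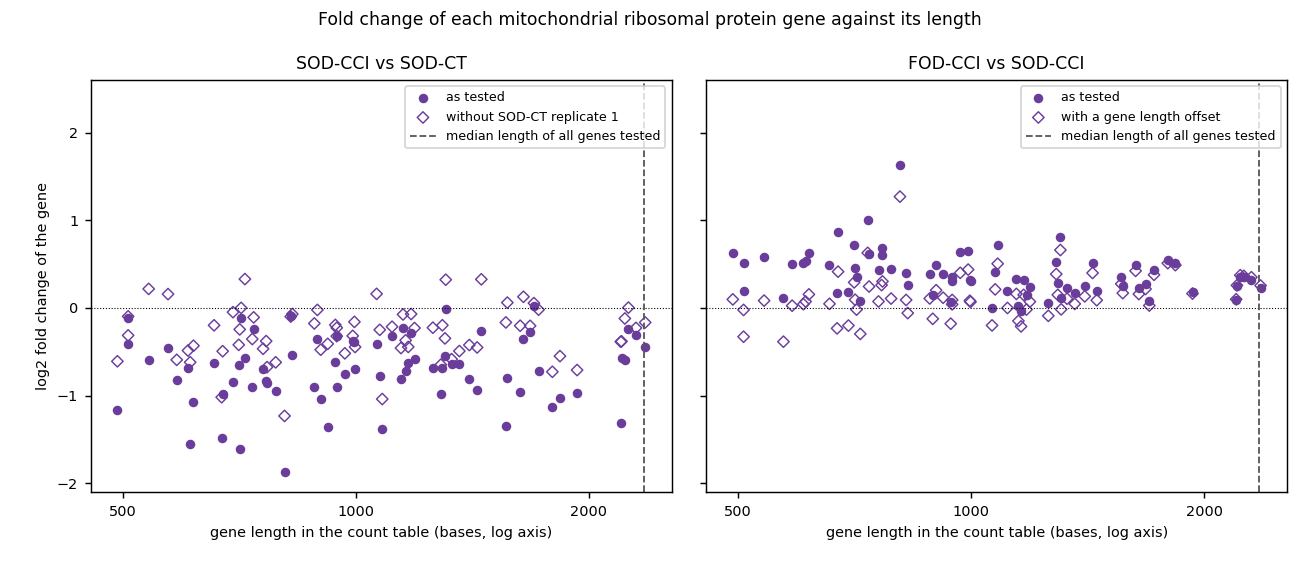
Log2 fold change of each of the 73 genes (points) against its length in the count table (bases, log axis), for SOD-CCI against SOD-CT and for FOD-CCI against SOD-CCI. Open symbols show the same genes without SOD-CT replicate 1 (left, median -0.25 in place of -0.68) or with the length offset (right, median 0.11 in place of 0.35), and the dashed line marks the median length of all genes tested, 2357 bases.

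Between the sham groups, FOD-CT was compared with SOD-CT. The estimate was lower on fish oil for 65 genes and higher for 8, with a median log2 fold change of -0.43. Neither tool called any (0% of all genes in edgeR, smallest adjusted p = 0.965), and 3 were lower at p under 0.05, against 1.62% of all genes. Without SOD-CT replicate 1 the difference was gone in the median, with 37 genes higher, 36 lower and a median of 0.00. Mrpl42 was at 306, 118, 81.9 and 153 RPKM in SOD-CT and 46.5, 104 and 57.1 in FOD-CT, and the groups overlapped. The log2 fold change was -1.25 (SE 0.39, adjusted p = 0.965 by edgeR) and -0.77 without SOD-CT replicate 1. Mrpl45, which lies at the tunnel exit facing the inner membrane, had a log2 fold change of -0.52, and Mrps9 had -0.73, with the same adjusted p. These were -0.32 and -0.33 without that library.

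The diet by injury interaction asks whether the injury difference itself differed between diets. It shares all 14 left libraries with the comparisons above. The estimate was positive for 72 of the 73 genes (median 0.75, all genes 0.02), which means a log2 difference of injured from sham that was higher on fish oil. None was called by edgeR (smallest adjusted p = 0.894, 0% of all genes), and DESeq2 gave none of the 73 an adjusted p. At p under 0.05, 17 were positive, against 4.32% of all genes. Among the 73, Mrps18c had the largest estimate on the log2 scale (2.66, SE 0.72, adjusted p = 0.894 by edgeR), and 1.59 with the length offset and without SOD-CT replicate 1.

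The size of the interaction changed when SOD-CT replicate 1 was left out and with the length offset. Its count at p under 0.05 also changed when any of several other libraries was left out. Without SOD-CT replicate 1, the median was 0.39, with 62 genes positive and 10 positive at p under 0.05 (3.12% of all genes). The length offset alone also gave 0.39, with 5 at p under 0.05 (3.16% of all genes). Both together gave 0.12, with 47 positive and 26 negative. The count of 17 was 5 without FOD-CT replicate 1 (3.39% of all genes), 7 without FOD-CT replicate 3 (3.08%), 7 without SOD-CCI replicate 2 (2.54%), 9 when FOD-CCI replicate 2 was left out (2.38%), 9 when it was SOD-CCI replicate 3 (2.88%), and 30 without SOD-CT replicate 3 (6.88%).

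**Figure D4:**
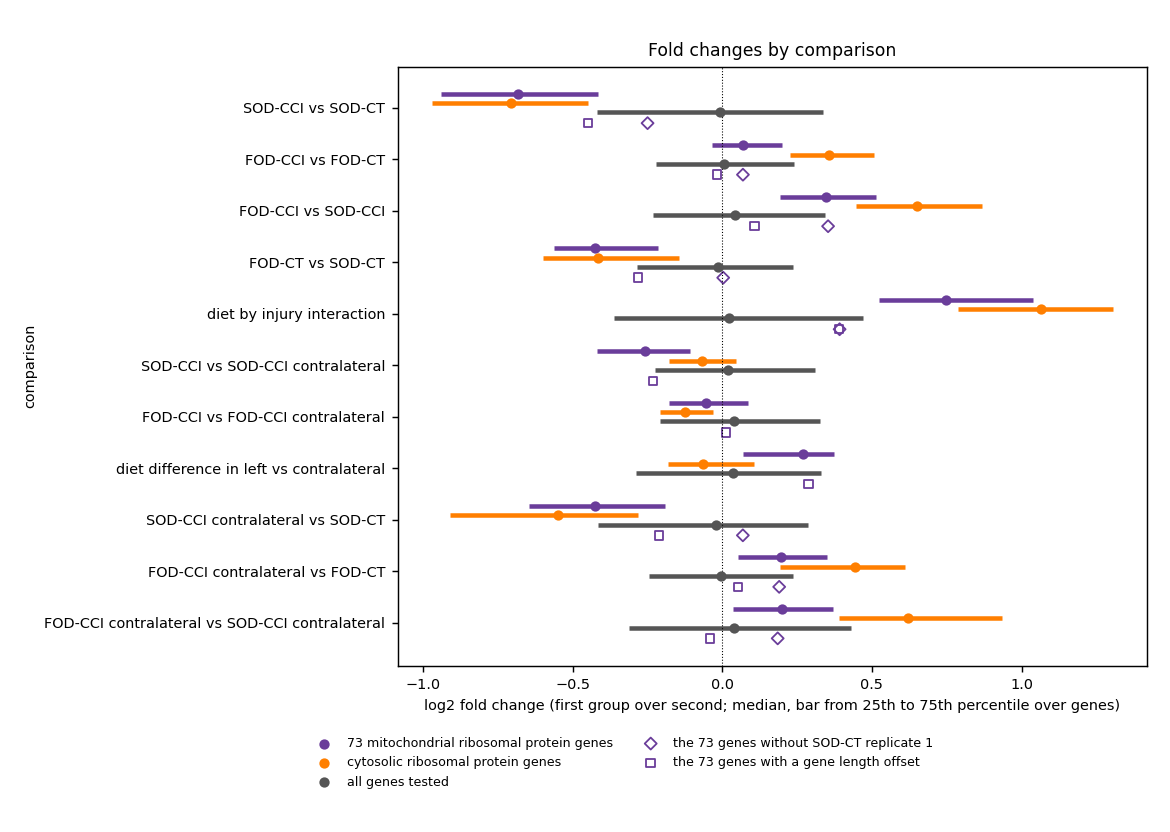
Median log2 fold change (points) and the 25th to 75th percentile over genes (bars) in each of the 11 comparisons, for the 73 genes, cytosolic ribosomal protein genes and all genes tested. The cytosolic set was taken by symbol alone (protein coding, Rpl or Rps and a number) and can include genes that are not ribosomal proteins. Open symbols give the median of the 73 genes without SOD-CT replicate 1 and with the length offset, and in SOD-CCI against SOD-CT both lie nearer 0 (-0.25 and -0.45) than the main value (-0.68).

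The within-rat comparison of left with right ganglia does not use the sham libraries. The injury was always on the left and no sham rat gave a right ganglion, so injury and side cannot be told apart. Among the 6 rats with both sides, 3 per diet, the libraries of 1 rat deviated together (r from 0.13 to 0.42), and rat was a block in the fit. In SOD-CCI rats the injured side was lower in estimate for 65 of the 73 genes and higher for 8, with a median of -0.26 (0.02 over all genes). None was called by edgeR, when 0.131% of all genes were, or by DESeq2, and 6 were lower at p under 0.05, against 3.14% of all genes. With the length offset the median was -0.23.

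The 3 soy oil rats differed in size and not in sign. The median left over right log2 ratio was -0.62 in rat 1, -0.20 in rat 2 and -0.04 in rat 3, with 67, 56 and 40 of the 73 genes lower on the left, against 50.3%, 50.1% and 47.7% of all genes. Without rat 1 the fitted median was -0.12 and 1 gene was lower at p under 0.05, against 1.36% of all genes. In all 3 rats 33 of the 73 genes were lower on the left, against 19.5% of all genes, and 2, Mrpl58 and Mrps12, were higher, against 21.4%. The smallest p belonged to Mrps18a, at 42.2, 40.6 and 29.5 RPKM on the left and 60.3, 72.1 and 46.9 on the right, so that the sides did not overlap. Its log2 fold change was -0.66 (SE 0.23, adjusted p = 0.457 by edgeR). Mrpl50 had -0.60 (adjusted p = 0.490 by edgeR) and Mrpl48, at 45.7, 38.8 and 41.2 against 78.4, 56.4 and 48.5 RPKM, had -0.51 (adjusted p = 0.491).

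In FOD-CCI rats, 45 genes were lower and 28 higher on the injured side, with a median of -0.06. Again no gene was called by either tool (0.0137% of all genes in edgeR), and 1 was higher at p under 0.05, against 4.3% of all genes. The median ratio was 0.24 in rat 1, 0.06 in rat 2 and -0.35 in rat 3, so the rats did not share a direction, and the fitted median was -0.14 without rat 1 and 0.13 without rat 3. In rats 1 to 3, 25, 30 and 58 of the 73 genes were lower on the left, against 46.9%, 50.2% and 48.7% of all genes. Both libraries of rat 1 held spinal cord markers. Mrps2, a small subunit protein, had a log2 fold change of 0.57 (SE 0.22, adjusted p = 0.650 by edgeR). Mrpl2, close to the peptidyl transferase centre, had -0.56 and Mrpl58 had 0.41.

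The side difference was then compared between diets. Of the 73 genes, 59 had a higher left to right ratio on fish oil (median 0.27), none was called by either tool (0% of all genes in edgeR, smallest adjusted p = 0.997), and 2 were higher at p under 0.05, against 0.804% of all genes. The median was 0.08 without SOD-CCI rat 1, 0.10 without FOD-CCI rat 1 and 0.43 without FOD-CCI rat 3, so single rats set its size. Mrps18a had the smallest p (log2 difference 1.03, SE 0.32, adjusted p = 0.997 by edgeR). On fish oil it was at 70.2, 48.02 and 43.2 RPKM on the left and 35.6, 44.2 and 42.4 on the right of rats 1 to 3, and only rat 1 had a large difference. In that rat, DRG neuron markers summed to 569 CPM on the right and 6246 CPM on the left. Its nerve injury markers on the left were at sham level (354 CPM), and both libraries held spinal cord markers. The part of these in the Mrps18a difference was not tested.

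Contralateral ganglia were also set against sham ganglia. Every contralateral library was a right ganglion of an injured rat and every sham library a left one. Side of the body and kind of surgery therefore cannot be told apart here. On soy oil, 65 genes were lower in estimate on the contralateral side than in SOD-CT (median -0.43), none was called by either tool (0% of all genes in edgeR, smallest adjusted p = 0.700), 5 were lower at p under 0.05 (5.98% of all genes) and 1 was higher (1.09%). Without SOD-CT replicate 1 the median was 0.07, with 40 higher and 33 lower, and without SOD-CCI contralateral replicate 1 it was -0.71. The higher gene was Mrps18a (log2 fold change 0.56, adjusted p = 0.700 by edgeR), whose contralateral levels of 60.3, 72.1 and 46.9 RPKM were all above the sham levels of 33.5 to 43.5.

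On fish oil, 58 genes were higher in FOD-CCI contralateral than in FOD-CT (median 0.20, and 0.05 with the length offset). No member was called by either tool (0% of all genes in edgeR), and 4 were higher at p under 0.05, against 0.907% of all genes. One was Mrps25, at 96.9, 70.3 and 76.6 RPKM against 47.7, 44.8 and 57.01 (log2 fold change 0.72), and another was Mrps17 (0.73), both with an adjusted p of 1.00 by edgeR. The others were Mrpl55 (0.60) and Mrpl2 (0.68). Without the libraries with spinal cord transcripts the median was 0.19, Mrps25 had 0.54 and Mrps17 0.33, and only Mrpl55 (0.74) was higher at p under 0.05, against 0.67% of all genes. Same-numbered libraries again deviated together (r = 0.59, 0.16 and 0.22). With the number as a block in a fit of these 2 groups, the median was 0.18, 7 genes were higher at p under 0.05, against 3.6% of all genes, and none was called (smallest adjusted p = 0.704 by edgeR).

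Between the contralateral groups, 57 genes were higher on fish oil (median 0.20), none was called by either tool (0% of all genes in edgeR), 2 were higher at p under 0.05 (4.5% of all genes) and 1 was lower (2.61%). The higher genes were Mrps25 (log2 fold change 0.78) and Mrps18c, at 60.5, 114 and 120 RPKM against 57.3, 34.4 and 28.9 (1.33), and the lower was Mrps18a (-0.52), with adjusted p from 0.697 to 0.699 by edgeR. The median was -0.04 with the length offset, 0.43 without SOD-CCI contralateral replicate 1 and 0.09 without SOD-CCI contralateral replicate 3. Leaving out FOD-CCI contralateral replicate 1, which held spinal cord markers and few neuron markers, turned the sign of 9 of the 73 genes. Leaving out SOD-CCI contralateral replicate 3 turned 12. Without SOD-CT replicate 1, which is in neither group, DESeq2 called Mrps18c (log2 fold change 1.30, adjusted p = 0.0965 by DESeq2) and 1.36% of genes higher.

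Other genes of mitochondrial translation were taken from fixed lists, and none of them was called by edgeR in any comparison. In SOD-CCI against SOD-CT, 4 of 5 mitoribosomal subunit genes with other names were lower in estimate (median -0.51), 2 at p under 0.05, where 8.8% of all genes were lower. Chchd1 had a log2 fold change of -1.97 and Gadd45gip1 -1.25 (adjusted p = 0.266 and 0.299 by edgeR), or -1.27 and -0.51 without SOD-CT replicate 1, whereas Dap3, a GTP-binding small subunit protein, had 0.18. Of 12 translation factors, 8 were lower (median -0.21) and 5 at p under 0.05, again against 8.8% of all genes. Among the 5 were the initiation factor gene Mtif2 (-1.31, and -1.01 without that library) and the release factor gene Mtrf1 (-1.33, and -0.80). The elongation factor gene Tufm had -0.22, which turned to 0.13 without that library.

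For the next lists too, 8.8% of all genes were lower at p under 0.05. Of 24 genes for mitoribosome assembly and rRNA modification, 16 were lower (median -0.27) and 4 at p under 0.05. The 4 included the GTPase genes Mtg1 (-0.79, and -0.47 without SOD-CT replicate 1) and Gtpbp10 (-1.24, and -0.58). Of 20 genes for mitochondrial aminoacyl-tRNA synthesis, 15 were lower (median -0.18) and none at p under 0.05. Of 10 regulators of mitochondrial transcription and biogenesis, 8 were lower (median -0.25) and 4 at p under 0.05. Among the 4 were Tfb2m (-1.16, and -0.62 without that library) and Tfam (-1.28, and -0.43), which act at mitochondrial promoters. Polrmt, also of this list, was higher in estimate (0.47, SE 0.27, adjusted p = 0.444 by edgeR), as was Gabpb1 (0.09). The genes of this list therefore did not share a direction. Tfam was at 93.0 RPKM in SOD-CT replicate 1, 17.1 to 28.2 in the other SOD-CT libraries and 13.1 to 18.5 in SOD-CCI. The genes of the factors whose letters were searched had -0.14 (Nrf1), -0.36 (Gabpa) and -0.05 (Yy1). When SOD-CT replicate 1 was left out, the counts lower at p under 0.05 were 1 of 5 subunit genes with other names, 2 of 12 translation factors, 1 of 24 assembly genes, 1 of 20 synthetase genes and 0 of 11 regulators, against 4.31% of all genes.

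In FOD-CCI against SOD-CCI, the same lists had medians of 0.45 (subunits with other names), 0.23 (translation factors), 0.29 (assembly), 0.14 (synthetases) and 0.27 (regulators), all but the first below the 0.35 of the 73 genes. With the length offset these were 0.09, 0.17, 0.19, 0.20 and 0.24, against 0.11. Chchd1 had 1.34, Malsu1 0.60 and Mpv17l2 0.60, each with an adjusted p of 0.859 by edgeR, or 0.82, 0.23 and 0.36 with the offset. A set for the cytosolic ribosome was taken by symbol alone (protein coding, Rpl or Rps followed by a number). That rule can also take in kinase genes whose symbols begin the same way. This set, 89 of 94 genes tested, had a median of -0.71 in SOD-CCI against SOD-CT (-0.30 without SOD-CT replicate 1). In FOD-CCI against SOD-CCI its median was 0.65, or 0.22 with the length offset. In FOD-CCI against FOD-CT the median of this set was 0.36, against 0.07 for the 73 genes. Comparisons that share a group share its libraries, and these medians are given as descriptions.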

How the data were processed

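Poly-A RNA-seq of 20 rat DRG libraries (22547190 to 54437581 counts) was used. Per the labels and methods, the authors used fastp for trimming, HISAT2 for alignment and featureCounts 1.5.0-p3 for counts per gene. The deposited counts were raw, and the deposited FPKM values, normalized by the authors, served only to check the RPKM computed here (Spearman rho of 1 over the member values in every library). The genome build, strand setting and treatment of multiply mapping reads are not given in the sources used here. The labels describe both stranded and non-stranded kits, so reads of overlapping antisense genes, and of near-identical copies such as processed pseudogenes, may be shared with a member's count.

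Groups came from the labels. Counts were fitted in R 4.3.3 with edgeR 4.0.16 (quasi-likelihood test, TMM, two-sided, Benjamini-Hochberg adjustment over all genes tested) in 3 models: 14 left libraries, 12 paired libraries with rat as a block, and 13 contralateral and sham libraries. Genes needed at least 10 counts in 90% of the libraries. A call needed a fold of 1.2 or more and an adjusted p no higher than 0.1, the thresholds of the study. Same-rat libraries correlated in deviation in 6 of 6 pairs (r from 0.133 to 0.417), whereas same-numbered libraries of different rats exceeded 0.1 in 5 of 19 left pairs and in 8 of 18 contralateral and sham pairs. Every such pair exceeded 0.1 between FOD-CT and FOD-CCI (0.419, 0.232 and 0.184) and between FOD-CT and FOD-CCI contralateral (0.589, 0.164 and 0.221), where a fit with the number as a block is also given. The number 1 libraries of these groups share spinal cord transcripts. No libraries were duplicates. The gene length offset was a lowess smooth (span 0.3) of each library's deviation on log length. Alternatives were DESeq2 1.42.0, its size factors, no filter on low counts, the length offset, each library left out, the libraries with spinal cord transcripts left out, the replicate block, and only the 2 groups compared. Library totals in place of TMM, the offset or DESeq2 without SOD-CT replicate 1, and the replicate block in 2 groups were added after seeing the data. The code was tested on simulated data.

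The members, lists and tests were chosen with earlier results of these data known. Named genes were those with the smallest p (3 in each of the main comparisons), 13 genes of set role, and the 5 highest and 5 lowest in level. Genes named beside these (those called by DESeq2, members of the smallest p in the remaining comparisons, and genes of the other lists) were chosen after their values were seen. Protein sequences were not used here.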

Additional observations from a re-analysis of the deposited data

Results flagged for a closer look

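In the groups of 4 libraries, 66 values were examined for a library far from the rest, and 10 were found. The threshold passes about 1 in 20 of independent values by chance. These genes moved together in the same libraries, so that rate cannot be set against the 10. The measure is the gap to the nearest library over the whole range of the group. In SOD-CT the far library was replicate 1 for 7 genes, high in each: Mrpl50 (0.844), Mrps25 (0.907), Mrpl12 (0.965), Mrpl10 (0.954), Mrps12 (0.913), Mrps36 (0.914) and Mrps18b (0.840). Mrpl10 is on this list although its 4 values lay between 28.9 and 33.2 RPKM, because the other 3 were nearly equal. In that library skeletal muscle markers took 12.4% of the counts.

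In FOD-CCI the far library was replicate 2 for 3 genes, high in each: Mrps18c (0.876), Mrpl41 (0.922) and Mrpl54 (0.988). Red cell markers summed to 22320 CPM in that library. The part of these transcripts in either pattern was not tested.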

How the results depend on the processing

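Over all alternatives, 217 medians of the 73 genes moved by less than the spread between libraries and 10 moved by more. The count of called members was 0 by edgeR in each of the 11 comparisons, so that its staying at 0 says nothing about stability. Without SOD-CT replicate 1 the median log2 fold change was -0.25 in SOD-CCI against SOD-CT, 0.0028 in FOD-CT against SOD-CT and 0.068 in SOD-CCI contralateral against SOD-CT. With the length offset and without that library, these were -0.158, 0.026 and 0.095, and the interaction was 0.125. DESeq2 without that library gave -0.258, -0.0040 and 0.083. DESeq2 called 8 members in SOD-CCI against SOD-CT, and without SOD-CT replicate 1 it called 0 there, 3 in FOD-CCI against SOD-CCI and 1 between contralateral groups. With every library it left all 73 without an adjusted p in the interaction, where no count can be given, and at most 2 in any other comparison.

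Leaving out each library, the median ranged from -0.84 to -0.25 in SOD-CCI against SOD-CT, 0.024 to 0.19 in FOD-CCI against FOD-CT, 0.26 to 0.44 in FOD-CCI against SOD-CCI, -0.57 to 0.0028 in FOD-CT against SOD-CT, 0.39 to 0.90 in the interaction, -0.40 to -0.12 and -0.14 to 0.13 between sides (SOD, FOD), 0.078 to 0.43 for their difference, -0.71 to 0.068 and 0.14 to 0.29 in contralateral against sham (SOD, FOD), and 0.087 to 0.43 between contralateral groups. Library totals in place of TMM gave -0.46 in SOD-CCI against SOD-CT (all genes shifted by 0.11) and 0.48 in the interaction.

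In SOD-CCI against SOD-CT, the sign turned for 10 of the 73 genes without SOD-CT replicate 1, 8 with the length offset, 19 with both, 8 with DESeq2 without that library, 4 with library totals and at most 2 under any other alternative, none of them called. Among the named genes, Mrpl10 had -0.014 with DESeq2, -0.015 with its size factors, and -0.003, -0.071 and -0.001 without FOD-CCI replicate 3, SOD-CCI replicate 1 or SOD-CT replicate 4. Without SOD-CT replicate 1, Mrpl3 had 0.127, Mrps12 0.329 and Mrps18b 0.160, and by DESeq2 0.118, 0.322 and 0.153. With the offset and without that library, these had 0.143, 0.527 and 0.270, while Mrpl44 had 0.020, Mrpl58 0.119 and Mrps18a 0.061. Mrps18a had 0.179 with the offset alone, 0.034 with library totals and 0.053 without SOD-CCI replicate 3. Leaving out each library gave -0.071 to 0.082 (Mrpl10), -0.54 to 0.127 (Mrpl3), -0.80 to 0.329 (Mrps12), -0.19 to 0.053 (Mrps18a) and -0.62 to 0.160 (Mrps18b). The cause was not tested.

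The replicate number as a block gave -0.68 in SOD-CCI against SOD-CT, 0.11 in FOD-CCI against FOD-CT, 0.40 in FOD-CCI against SOD-CCI, -0.44 in FOD-CT against SOD-CT 0.77 in the interaction, -0.39 and 0.20 in contralateral against sham (SOD, FOD), and 0.27 between contralateral groups, with no member called. Only FOD-CT paired with FOD-CCI or with FOD-CCI contralateral had every same-number correlation over 0.1. Without the rat block, the side medians were -0.28 (SOD), -0.05 (FOD) and 0.30 (difference), again with none called. With 3 or 4 rats per group, the common dispersion was 0.206 in the left libraries, 0.14 in the paired and 0.242 in the contralateral and sham libraries (the paired value after the rat block). Depth was not varied.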
